A study of Mus musculus with 6 samples.

Results

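A set of 56 genes that act in mitosis was examined in colorectal tissue of colitis mice under berberine (BBR), a plant alkaloid, or sulfasalazine (SASP), a standard aminosalicylate drug for this disease. The genes were chosen by symbol, with no threshold on their values, but with earlier results of these data known. The study had already reported lower cell cycle genes under BBR than under SASP in colitis mice. The counts below are therefore no independent evidence of a lower level. All 56 genes were found among the 18268 genes of the expression table. Both groups were male C57BL/6 mice of 8 to 10 weeks with no genetic change named. Colitis was raised in every mouse with dextran sulfate sodium (DSS), which damages the epithelium, in the drinking water for 7 days, at 2.5% by the methods. BBR at 100 mg/kg or SASP at 200 mg/kg was given by gavage for 6 days, to 3 mice each. Healthy mice and colitis mice without a drug were not analysed here, so each value below compares the drugs and not a drug with its absence. The labels call all 6 tissues colorectal, while the text of the study speaks of rectum for BBR and of colon for SASP, so the sampled site and the drug cannot be told apart. The labels do not state whether tissue was pooled, so p-values measure the spread between these samples.

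Mitosis is run by kinases. Cyclin-dependent kinase 1, bound to its cyclins, starts it, Polo and Aurora kinases build the spindle, and the spindle checkpoint holds cells until each kinetochore, the protein plate on a centromere, is attached to microtubules. The anaphase-promoting complex then marks cyclin B and securin for destruction, separase frees the sister chromatids and kinesins and central spindle proteins pull the cell apart. Most of these genes are transcribed late in the cell cycle by a complex of MuvB, B-Myb and FoxM1, which acts at promoters with a cell cycle homology region (CHR) and often with CCAAT boxes, the binding site of NF-Y. In the colon, dividing cells sit mainly in the lower crypt, and dividing leukocytes are found in the wall of an inflamed colon.

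The 6 libraries were alike in size. Estimated depth was 16400000 to 18200000 reads, 11518 to 12307 genes per mouse reached 1 FPKM (fragments per kilobase, relative to all mapped reads), and Epcam, an epithelial surface protein, was at 833 to 1101 FPKM, so the tissue label held. BBR mouse 3 stood apart, with 8245 FPKM summed over 13 smooth muscle markers against 1010 to 3892 in the other 5 mice. The number of genes called and their median are also given without it.

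Mitotic genes were lower in colitis mice receiving BBR than in those receiving SASP. Their summed level was 348, 291 and 177 FPKM in BBR mice 1 to 3 and 745, 610 and 418 FPKM in SASP mice 1 to 3. The groups did not overlap, although SASP mouse 3 lay closer to BBR mouse 1 than to SASP mouse 1. Means were 272 ± 87.0 and 591 ± 164 FPKM (SD, n = 3 each). Of the 55 genes that passed the filter (1 FPKM in at least 3 mice), 54 had a lower mean under BBR, with a median log2 fold change of -0.98 on the log2(FPKM + 1) scale, beside a median of 0.10 over all 12072 genes tested. The median of the SASP mean over the BBR mean was 2.36, and it was at least 2 in 43 of the 56 genes.

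Past an adjusted p of 0.05 (limma, Benjamini-Hochberg over all tested genes), 17 of the 55 genes fell under BBR, or 30.9%, where 5.04% of all tested genes did. In the opposite direction 0 mitotic genes passed, where 3.82% of all tested genes rose. At an unadjusted p under 0.05, 0 were higher too, beside 2224 of all 12072 tested genes. Lower values at an unadjusted p under 0.05 were found for 47 of the 55, and for 13.4% of all tested genes. At an adjusted p under 0.1 the count was 41 of 55, beside 9.97% of all tested genes, so that 24 genes stood between both limits. Every BBR value lay below every SASP value in 42 of the 55 genes (76.4%), which held for 16.6% of all tested genes. None of the 56 genes was at 0 in any mouse. The lowest values were small in reads for some genes, about 8 reads for Cenph in BBR mouse 3, and about 751 for Pttg1 at its lowest.

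**Figure D1:**
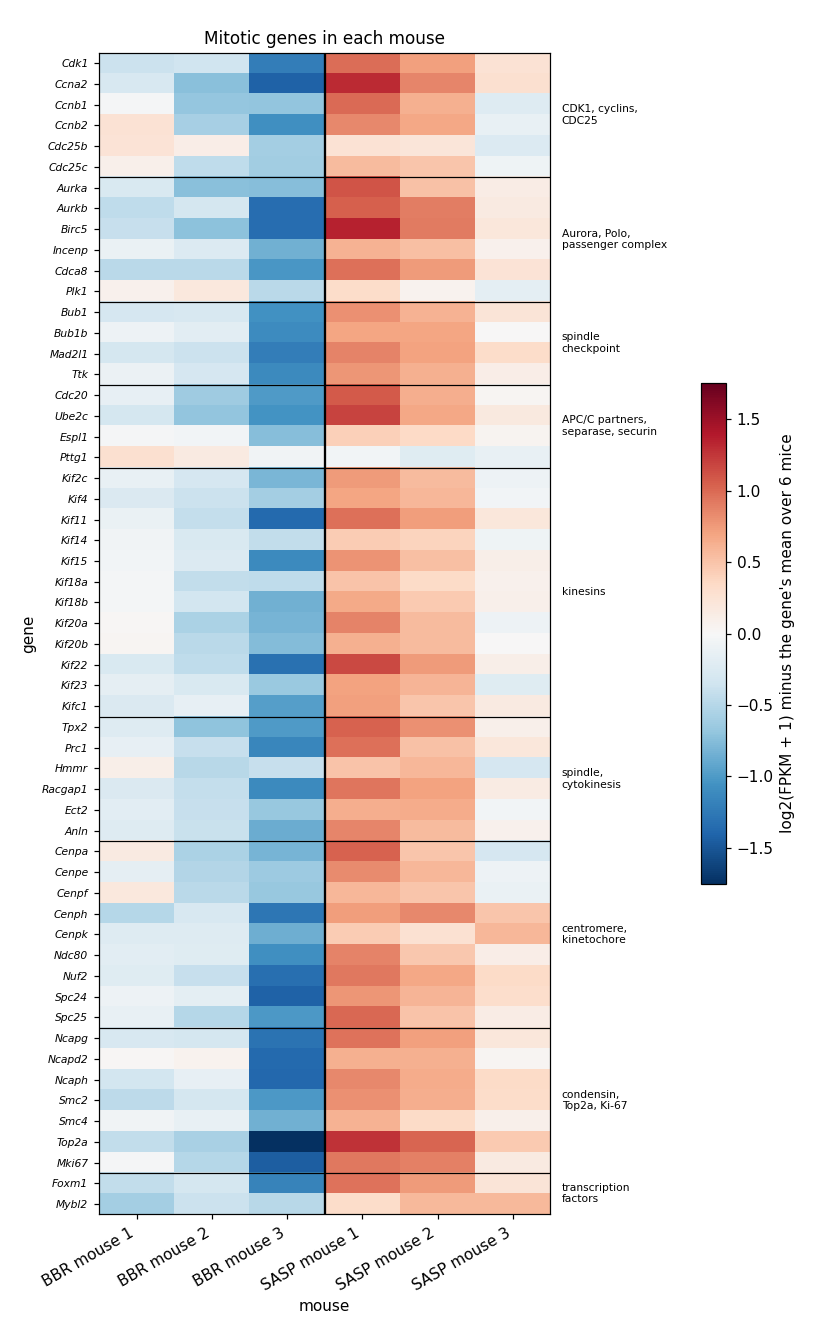
Level of each of the 56 mitotic genes (rows, in groups by role) in each mouse (columns), as log2(FPKM + 1) minus the mean of that gene over the 6 mice. Most rows are blue in the 3 BBR mice and red in the 3 SASP mice, BBR mouse 3 is the bluest column and SASP mouse 3 the palest of its group.

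Within each group the genes kept nearly the same order of mice. BBR mouse 3 had the lowest BBR value in 54 of the 56 genes, all but Mybl2 and Hmmr. SASP mouse 3 had the lowest SASP value in 53, all but Mybl2, Pttg1 and Cenpk. SASP mouse 1 held the highest SASP value in 49 genes and BBR mouse 1 the highest BBR value in 44. The groups overlapped in 14 genes, and in 13 of these SASP mouse 3 was below BBR mouse 1. Without SASP mouse 3, 11 of the 14 did not overlap. Leaving out the lowest SASP mouse favours this outcome by construction, and no such count was made over all genes.

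The direction was steadier than the calls. In the fits that left out 1 mouse, 52 to 54 of the 55 genes were lower and the median was -1.20 to -0.77. The number that passed was 0 without BBR mouse 1, 0 without SASP mouse 1, 0 without SASP mouse 3, 1 without SASP mouse 2, 3 without BBR mouse 2 and 30 without BBR mouse 3. Calls over the whole table moved too, since in the same order 0.915%, 0.418%, 0.378%, 2.13%, 2.55% and 11.5% of all tested genes fell. Where 0 passed, limma gave 52, 35 and 50 genes lower at an unadjusted p under 0.05 without BBR mouse 1, SASP mouse 1 and SASP mouse 3, beside 10.9%, 9.3% and 9.44% of all tested genes. Of the 17 genes called with all mice, Mybl2 kept its call in 3 of those 6 fits, Smc2 and Cenph in 2, and the other 14 in 1, the fit without BBR mouse 3.

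**Figure D2:**
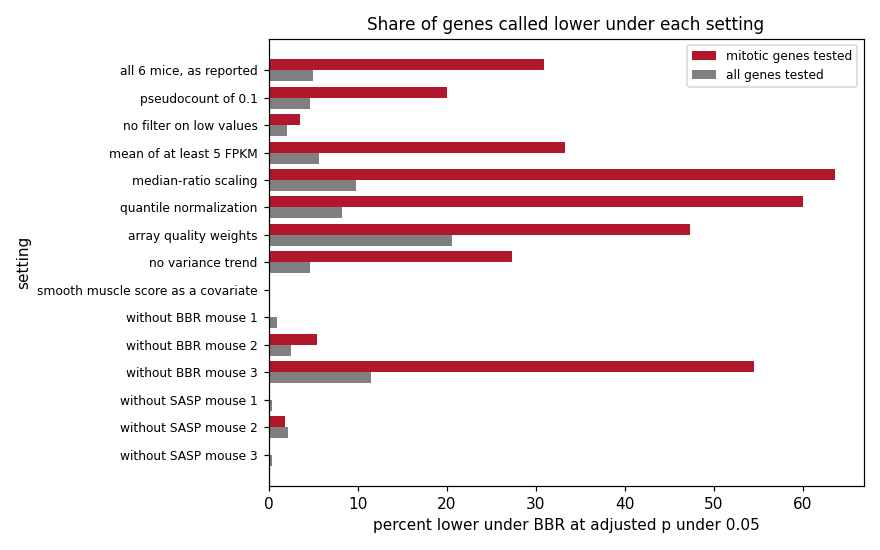
Percent of genes lower under BBR at an adjusted p under 0.05 (horizontal axis) under each setting of the test (vertical axis), for the mitotic genes tested (red) and all genes tested (grey). With all 6 mice it is 30.9% of mitotic genes, and a row without a red bar is 0 genes, as without BBR mouse 1, SASP mouse 1 or SASP mouse 3 and with the smooth muscle score.

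Levels of some cell type markers also differed between the groups. RNA was taken from whole tissue, in which fewer cells of a type and less RNA per cell cannot be told apart. All 13 smooth muscle markers had a higher mean under BBR, with a median log2 fold change of 1.29, though 0 passed in limma. At an unadjusted p under 0.05, 11 were higher, beside 2224 of all 12072 tested genes. The sums of the 13 markers were 3581 to 8245 FPKM under BBR and 1010 to 2990 FPKM under SASP. With their mean log2 level added to the model, the median of the mitotic genes was -0.40 and 0 passed. At an unadjusted p under 0.05, 4 of the 55 were lower with it, beside 6.74% of all tested genes. In that fit the genes called lower over the whole table went from 608 to 14 (0.116%) and those called higher from 461 to 1. All 9 fibroblast markers were higher in mean. Of them 4 rose, such as Lum (1.32, limma adjusted p = 0.0444), beside 3.82% of all tested genes. The fibroblast sums were 315 to 420 FPKM under BBR and 140 to 247 FPKM under SASP.

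The 13 epithelial markers summed to 7890 to 10389 FPKM under BBR and 7768 to 8032 FPKM under SASP, with a median log2 fold change of 0.08. Among them Krt18, a keratin, and Cdx2, a factor of intestinal identity, rose (0.745 and 1.496, limma adjusted p = 0.0163 and 0.0422), and Vil1, of the brush border, fell (-0.55, adjusted p = 0.0327). Expressed per 100 FPKM of these markers, the mitotic sum was 4.05, 3.69 and 1.71 in BBR mice and 9.54, 7.60 and 5.38 in SASP mice, which did not overlap. The marker sum is led by its most abundant genes and holds markers that themselves differed, so it is no neutral measure of epithelium. All 9 tested leukocyte markers were lower in mean under BBR, and 0 passed in limma. At an unadjusted p under 0.05, 6 were lower, beside 13.4% of all tested genes. The leukocyte sums, 32.2 to 55.3 FPKM against 50.5 to 102 FPKM, overlapped between the groups. The 9 B cell and germinal centre markers summed to 10.4 to 12.8 and 14.8 to 38.4 FPKM, and 3 of the 5 tested were lower in mean, with a median of -0.34. Cd79b, a subunit of the B cell receptor, fell (-1.63, SE 0.39, limma adjusted p = 0.0489), while Rgs13 and S1pr2 of germinal centre B cells had higher means under BBR (0.38 and 0.41, adjusted p = 0.305 and 0.327). Mef2b, a factor of germinal centre B cells, was at most at 0.16 FPKM. SASP mouse 1 had the highest leukocyte and B cell sums, the lowest smooth muscle sum and the highest mitotic sum. The T cell markers summed to 12.5 to 15.3 FPKM under BBR and 8.23 to 13.0 FPKM under SASP, and of 3 tested Thy1, also held by the fibroblast list, rose (0.84, adjusted p = 0.0399). The crypt stem cell markers summed to 28.1 to 49.9 and 43.7 to 48.0 FPKM. Of these, Cdca7 fell (-0.90, adjusted p = 0.0247) and Sox9 rose (0.77, adjusted p = 0.0279), while Lgr5, which marks the stem cells, was at 0.05 to 0.52 FPKM in all mice and Olfm4 at most at 0.06 FPKM. The part of these cell types in the mitotic difference was not tested. The smooth muscle sums did not overlap between the groups, so the fit with their level cannot tell muscle content and drug apart.

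**Figure D3:**
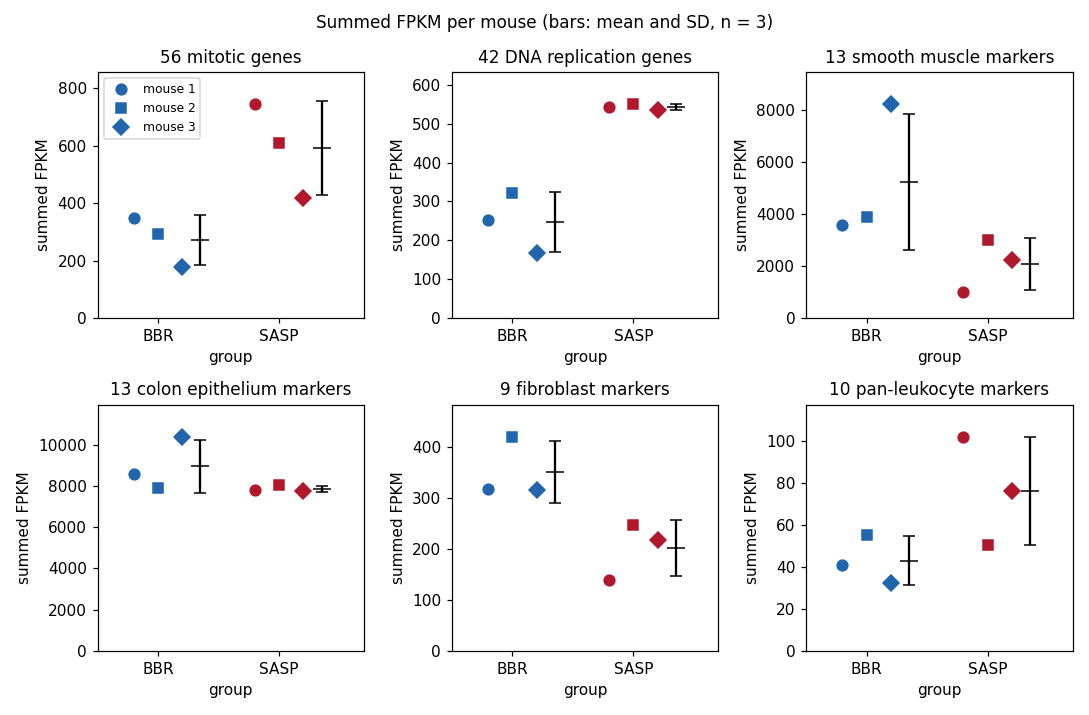
Summed FPKM (vertical axes, from 0) per mouse in the BBR (blue) and SASP (red) groups for 6 gene lists, with mean and SD (n = 3). Mitotic and DNA replication sums do not overlap between the groups, SASP mice 1 to 3 spread from 745 to 418 FPKM for mitotic genes but only from 535 to 551 FPKM for replication genes, and BBR mouse 3 stands apart for smooth muscle.

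Since most of these genes lay lower together, the sequence before their start sites was searched. RefSeq promoters on build GRCm38.p6, another build than the one used for the expression values, were at hand for 47 of the 56 genes, as 51 promoters. Ccna2, Cdc25c, Aurkb, Incenp, Kif20a, Tpx2, Spc24, Smc4 and Foxm1 were not among them. In the 250 bases before the start, read on both strands, CCAAT stood in 38 of 51 promoters (74.5%), against 35.3% of 12419 promoters of tested genes and 33.8% of all 32851. It stood there at least 2 times in 45.1%, against 12.8% of the promoters of tested genes. TTTGAA, the usual CHR, was in 18 of 51 (35.3%), against 10.7% and 16.0%. Read on to 50 bases past the start, TTTGAA was in 36 of 51 (70.6%), against 12.2% and 17.9%, a window chosen after the values were seen. TTTAAA, a CHR variant, was in 13.7% against 8.5% of the promoters of tested genes, and TTCGAA, a further one, in 3.92% against 1.78%. Among E2F sites, TTTGGCGC was in 5.88% against 0.757% and TTTCCCGC in 0.0% against 1.59%. Motifs were counted separately, also where they overlapped, and TTTAAA is its own reverse complement.

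Genes with and without a motif had medians close to each other. The 33 tested genes with CCAAT had a median log2 fold change of -0.93 and 8 passed, and the 13 without it -0.98 and 5 passed. The 16 with TTTGAA before the start had a median of -1.17 and 4 passed, and the 30 without it -0.92 and 9 passed. These differences were not tested. Read on past the start, TTTGAA stood in 36 of 51 promoters in place of 18, so genes among the 30 may hold it there. The last 150 bases before the start are shown for genes that differ in response or in motifs, with each CCAAT box and each CHR of the kinds TTTGAA or TTTAAA in capitals, on either strand, so that a box on the other strand reads ATTGG and a CHR there reads TTCAAA. Top2a (chr11:99024190-99024339, minus strand), Ube2c (chr2:164769779-164769928, plus strand) and Cdk1 (chr10:69352913-69353062, minus strand) fell under BBR and hold both CCAAT and the CHR. Ccnb2 (chr9:70421555-70421704, minus strand), which did not pass, holds 3 CCAAT boxes and no CHR in this stretch. It is still among the 16 genes with TTTGAA before the start, since its TTTGAA lies upstream of the bases shown. Plk1 (chr7:122159285-122159434, plus strand), with little difference, holds 1 CCAAT box and TTTAAA at 2 places. Mybl2 (chr2:163054485-163054634, plus strand), with the smallest p of all 55, and Pttg1 (chr11:43425982-43426131, minus strand), the gene with a higher mean under BBR, hold none of these letters in the stretch.
Top2a: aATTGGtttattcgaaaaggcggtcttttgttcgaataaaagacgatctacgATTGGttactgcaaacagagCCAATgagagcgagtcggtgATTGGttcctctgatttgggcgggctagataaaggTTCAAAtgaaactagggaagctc
Ube2c: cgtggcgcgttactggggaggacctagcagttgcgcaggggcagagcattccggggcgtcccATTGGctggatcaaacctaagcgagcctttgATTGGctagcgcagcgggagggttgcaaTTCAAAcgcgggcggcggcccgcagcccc
Cdk1: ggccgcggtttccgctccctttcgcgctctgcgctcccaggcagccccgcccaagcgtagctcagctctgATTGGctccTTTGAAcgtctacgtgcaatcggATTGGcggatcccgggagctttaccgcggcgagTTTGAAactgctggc
Ccnb2: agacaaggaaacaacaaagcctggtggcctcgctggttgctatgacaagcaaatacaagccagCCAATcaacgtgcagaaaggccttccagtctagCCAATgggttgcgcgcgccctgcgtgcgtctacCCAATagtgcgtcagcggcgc
Plk1: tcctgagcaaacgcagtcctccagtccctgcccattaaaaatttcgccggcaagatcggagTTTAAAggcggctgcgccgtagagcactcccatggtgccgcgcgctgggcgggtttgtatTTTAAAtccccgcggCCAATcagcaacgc
Mybl2: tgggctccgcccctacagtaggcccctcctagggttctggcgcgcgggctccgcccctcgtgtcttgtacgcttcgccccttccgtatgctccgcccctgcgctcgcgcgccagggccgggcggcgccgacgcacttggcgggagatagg
Pttg1: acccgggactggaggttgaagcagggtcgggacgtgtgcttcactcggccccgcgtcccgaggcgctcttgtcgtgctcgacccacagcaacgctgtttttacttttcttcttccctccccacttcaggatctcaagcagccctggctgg

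Of cyclin-dependent kinase 1, its cyclins and the CDC25 phosphatases that switch it on, 2 of 6 fell. Ccna2, the A-type cyclin of S phase and early mitosis, was at 10.8, 7.65 and 4.41 FPKM in BBR mice 1 to 3 and at 34.7, 25.1 and 16.6 FPKM in SASP mice 1 to 3. Cdk1, the kinase itself, was at 3.16, 3.24 and 1.34 FPKM and at 9.68, 7.89 and 5.43 FPKM. The groups did not overlap in either gene. The log2 fold change was -1.63 for Ccna2 (SE 0.35, limma adjusted p = 0.0383) and -1.30 for Cdk1 (SE 0.29, adjusted p = 0.0419). The B-type cyclins, the mitotic partners of the kinase, and Cdc25b were named after their values were seen. Ccnb1 was at 7.76, 4.55 and 4.48 FPKM under BBR and 16.7, 12.6 and 6.60 FPKM under SASP, and Ccnb2 at 11.2, 5.79 and 3.85 FPKM and 17.4, 15.4 and 8.30 FPKM. In both, SASP mouse 3 lay below BBR mouse 1, and neither passed (-0.93 each, adjusted p = 0.115 and 0.151). Cdc25b was at 5.75, 5.16 and 2.76 FPKM under BBR and 5.80, 5.60 and 3.84 FPKM under SASP, a spread within each group wider than the gap between them (-0.16, SE 0.26, adjusted p = 0.692). For Cdc25c the log2 fold change was -0.64 (adjusted p = 0.134).

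Of the Aurora and Polo kinases and the chromosomal passenger complex, which corrects wrong attachments of chromosomes and guides cytokinesis, 4 of 6 fell. Birc5, the survivin subunit of the complex, was at 13.0, 10.3 and 6.39 FPKM in BBR mice and at 46.4, 34.1 and 20.5 FPKM in SASP mice. Aurkb, its kinase, was at 3.80, 4.28 and 1.59 FPKM and at 12.6, 11.2 and 6.29 FPKM. Cdca8, the borealin subunit, was at 5.75, 5.76 and 3.58 FPKM and at 17.3, 14.7 and 10.03 FPKM. All 3 were apart between the groups, with a fold of the means of 3.40, 3.11 and 2.79. The log2 fold change was -1.64 for Birc5 (SE 0.34, limma adjusted p = 0.0351), -1.40 for Aurkb (SE 0.34, adjusted p = 0.0496) and -1.31 for Cdca8 (SE 0.24, adjusted p = 0.0257). Incenp, the scaffold that ties the kinase to the other subunits, was lower in every BBR mouse than in any SASP mouse but did not pass (-0.80, adjusted p = 0.0735). Aurka, the Aurora kinase of the spindle poles, was at 6.19, 4.20 and 4.12 FPKM under BBR and 17.5, 11.3 and 8.40 FPKM under SASP, again apart (-1.16, SE 0.27, adjusted p = 0.0444).

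Plk1, the Polo kinase that acts from entry into mitosis to cytokinesis, differed little. It was named after its values were seen, as was Pttg1 below. It was at 19.9, 21.5 and 13.3 FPKM in BBR mice 1 to 3 and at 23.7, 19.7 and 16.7 FPKM in SASP mice 1 to 3. The groups overlapped, and means were 18.2 ± 4.33 and 20.0 ± 3.52 FPKM (SD, n = 3 each). The difference on the log2 scale was -0.14 (SE 0.21, limma adjusted p = 0.653). Without BBR mouse 3 the sign turned, to 0.06. The ratio of Plk1 to Birc5, by FPKM in each mouse, was 1.53, 2.09 and 2.08 under BBR and 0.511, 0.577 and 0.814 under SASP. Birc5 itself fell, and its difference enters this ratio. Of the other ratios taken, those of Ccnb1 to Cdk1, Mybl2 to Foxm1, Aurka to Tpx2 and Spc24 to Spc25 overlapped between the groups. The ratio of Plk1 to Aurkb was 5.22, 5.02 and 8.36 under BBR and 1.88, 1.76 and 2.65 under SASP. Pttg1 to Espl1 (33.3, 31.7 and 114 against 15.5, 14.9 and 22.5) and Ndc80 to Nuf2 (0.793, 0.921 and 0.940 against 0.765, 0.677 and 0.654) were also apart. So was Top2a to Mki67, lower under BBR (1.21, 1.57 and 1.35 against 2.04, 1.77 and 2.02).

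Of the 4 spindle checkpoint genes, all had BBR values below all SASP values and 2 fell. Mad2l1, the checkpoint protein that binds the activator of the anaphase-promoting complex, was at 8.35, 7.98 and 3.99 FPKM in BBR mice and 20.3, 18.0 and 13.6 FPKM in SASP mice. Bub1, a kinase that gathers checkpoint proteins at the kinetochore, was at 1.47, 1.51 and 0.45 FPKM and 4.28, 3.65 and 2.57 FPKM. In both genes BBR mouse 3 stood lowest, well under the other 2 BBR mice. Mad2l1 changed by -1.27 (SE 0.27, limma adjusted p = 0.0384) and Bub1 by -1.10 (SE 0.26, adjusted p = 0.0483). Ttk, the kinase that starts the checkpoint signal, and Bub1b, which holds back the anaphase-promoting complex, had log2 fold changes of -1.01 and -0.92 (adjusted p = 0.0754 and 0.106).

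The partners of the anaphase-promoting complex and its targets split. Ube2c, the ubiquitin-conjugating enzyme of the complex and the highest of the 56 genes in SASP mice by mean, fell. It was at 19.7, 14.8 and 11.3 FPKM under BBR and 56.9, 40.0 and 27.7 FPKM under SASP, with no overlap (-1.36, SE 0.29, limma adjusted p = 0.0375). Cdc20, the activator of the complex, was at 9.27, 6.34 and 4.69 FPKM and at 22.9, 16.6 and 10.6 FPKM. It was apart too and did not pass (-1.17, SE 0.31, adjusted p = 0.0607). Espl1, separase, had a log2 fold change of -0.54 (adjusted p = 0.162).

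Pttg1, securin, the inhibitor of separase, was the only one of the 55 genes with a higher mean under BBR. It was at 35.3, 32.3 and 27.4 FPKM in BBR mice and 27.8, 24.7 and 26.1 FPKM in SASP mice. SASP mouse 1 lay above BBR mouse 3, so the groups overlapped (0.26, SE 0.12, limma adjusted p = 0.188). Without BBR mouse 3 it was past the threshold (0.36, adjusted p = 0.0282), in a fit where 22.3% of all tested genes rose. Per FPKM of Birc5, which itself fell, it was at 2.71, 3.13 and 4.29 under BBR and at 0.600, 0.723 and 1.27 under SASP.

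**Figure D4:**
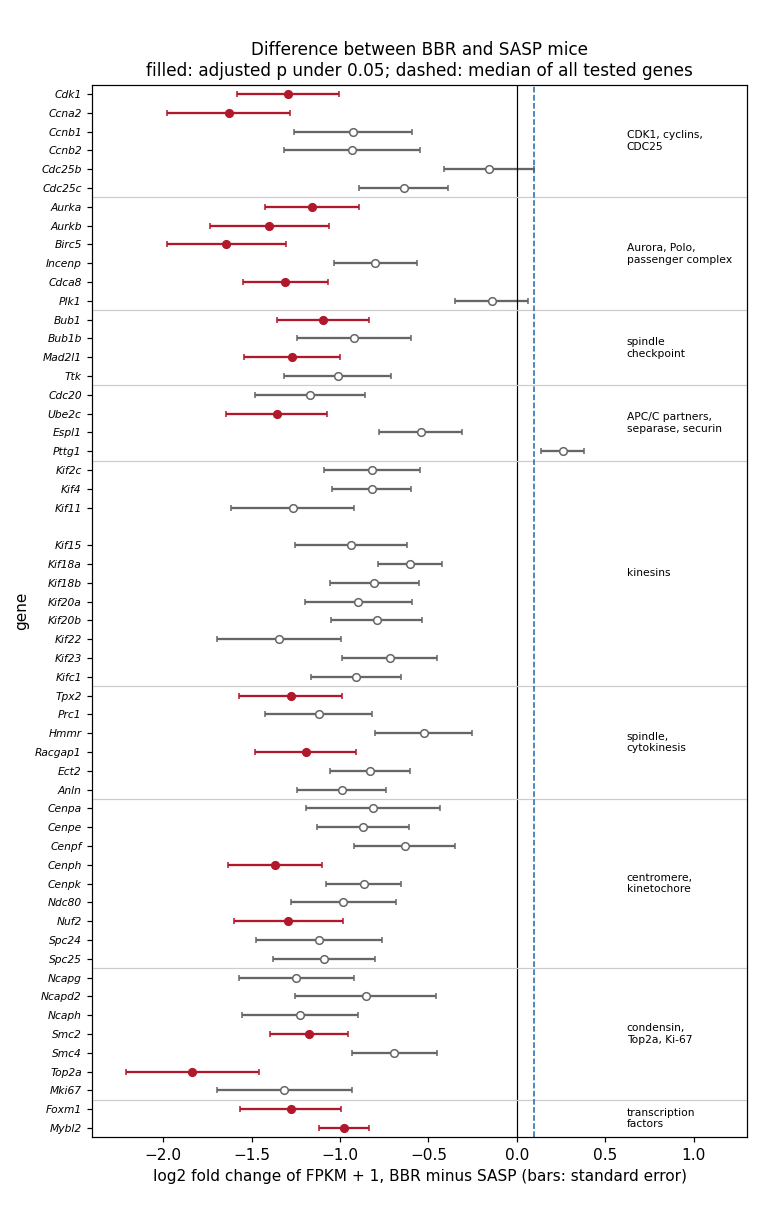
Log2 fold change of FPKM + 1, BBR minus SASP (horizontal axis), with its standard error for the 55 mitotic genes tested, by role (Kif14, left blank, was below the filter). All but Pttg1 lie left of 0, 17 are filled (adjusted p under 0.05), and Plk1 and Cdc25b lie nearest to 0 among those on the left.

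The kinesins, motors that move chromosomes and slide microtubules, had no call of their own. In limma 0 of the 11 tested passed, while all 11 were lower at an unadjusted p under 0.05, 10 of them had an adjusted p between 0.05 and 0.1, and 8 were apart between the groups. Their median log2 fold change was -0.82. Kif22, which pushes chromosome arms from the poles, was at 5.11, 4.39 and 1.98 FPKM in BBR mice and 15.4, 11.4 and 6.93 FPKM in SASP mice (-1.35, SE 0.35, adjusted p = 0.0590). Kif4, a chromosome-bound motor of the central spindle, was at 2.07, 1.80 and 1.40 FPKM and 4.91, 4.46 and 2.53 FPKM (-0.82, SE 0.22, adjusted p = 0.0634). Both were apart, and both passed under median-ratio scaling or quantile normalization. Next came Kif11, the motor that parts the spindle poles, at -1.27 (adjusted p = 0.0645), and Kifc1, which holds them together, at -0.91 (adjusted p = 0.0671). RSEM, which produced the values, divides reads between Kifc1 and its near copy Kifc5b (0.46 to 1.76 FPKM), so this value is uncertain. Kif18a, Kif18b, Kif20b, Kif2c, Kif15 and Kif20a ranged from -0.94 to -0.60. Kif23, a motor of the central spindle, had an adjusted p of 0.121. Kif14, below the filter, was at 0.77, 0.53 and 0.36 FPKM under BBR and 1.51, 1.41 and 0.75 FPKM under SASP, where SASP mouse 3 lay between BBR mice 1 and 2.

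Of 6 genes of spindle assembly and cytokinesis, 2 fell. Tpx2, which brings Aurora A to spindle microtubules and switches it on, was at 5.83, 3.89 and 3.02 FPKM in BBR mice and 15.3, 12.9 and 7.47 FPKM in SASP mice. Racgap1, a part of centralspindlin, was at 5.50, 4.85 and 2.58 FPKM and 14.0, 11.6 and 7.63 FPKM. Neither gene overlapped between the groups. The changes were -1.28 for Tpx2 (SE 0.29, limma adjusted p = 0.0443) and -1.19 for Racgap1 (SE 0.29, adjusted p = 0.0489). Anln, Prc1 and Ect2, which shape the contractile ring, bundle the central spindle and activate RhoA, were at -0.99, -1.12 and -0.83 with adjusted p-values of 0.0553, 0.0618 and 0.0646. Hmmr, a spindle protein named after its values were seen, was at 6.15, 3.75 and 4.01 FPKM and 8.39, 8.97 and 4.44 FPKM, with SASP mouse 3 below BBR mouse 1 (-0.53, adjusted p = 0.227).

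Of 9 centromere and kinetochore genes, 2 fell and 7 were apart. Cenph, of the inner kinetochore, was at 1.36, 1.75 and 0.39 FPKM in BBR mice and 4.57, 4.98 and 3.68 FPKM in SASP mice, at 3.78 the largest fold of the means among the 56 genes. Nuf2, of the complex that grips microtubules, was at 3.29, 2.77 and 1.00 FPKM and 8.50, 6.96 and 5.29 FPKM. In both, the lowest SASP value lay above the highest BBR value. Cenph changed by -1.37 (SE 0.27, limma adjusted p = 0.0302) and Nuf2 by -1.29 (SE 0.31, adjusted p = 0.0484). Ndc80, Spc24 and Spc25, the other subunits of that complex, were at -0.98, -1.12 and -1.09 with adjusted p-values of 0.0798, 0.0867 and 0.0599. Cenpk, another inner kinetochore gene, was at 1.87, 1.87 and 0.84 FPKM and 3.54, 3.03 and 4.03 FPKM (-0.87, SE 0.21, adjusted p = 0.0504). It was the only gene highest in SASP mouse 3 alone, since Mybl2 was as high in SASP mouse 2. Cenpa, the histone that marks the centromere, was at 11.3, 6.52 and 5.23 FPKM and 21.5, 14.4 and 7.95 FPKM, with an overlap (-0.81, adjusted p = 0.189). Cenpk and Cenpa were named after their values were seen. Cenpe, a kinetochore motor, and Cenpf, a large kinetochore protein, were at -0.87 and -0.64 (adjusted p = 0.0767 and 0.173).

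Of the 7 genes of chromosome shape, condensin subunits, topoisomerase and the proliferation marker Mki67, 2 fell. Top2a, which untangles sister chromatids, showed the largest log2 fold change of the 55. It was at 13.4, 12.1 and 4.74 FPKM in BBR mice and 45.7, 38.5 and 25.6 FPKM in SASP mice, apart by more than 10 FPKM (-1.84, SE 0.38, limma adjusted p = 0.0353). Smc2, a core subunit of condensin, was at 3.37, 3.84 and 1.98 FPKM and 9.42, 8.28 and 6.51 FPKM (-1.18, SE 0.22, adjusted p = 0.0276). Smc4, its partner in the same ring, was at 13.7, 13.0 and 7.53 FPKM and 22.4, 18.4 and 15.3 FPKM, apart but with a smaller difference (-0.69, SE 0.24, adjusted p = 0.103). The ratio of Smc2 to Smc4 was 0.246, 0.295 and 0.263 under BBR and 0.420, 0.451 and 0.424 under SASP, narrow within each group. Ncapg, Ncaph and Ncapd2, of condensin I, were at -1.25, -1.23 and -0.86 (adjusted p = 0.0590, 0.0623 and 0.187). Mki67, which coats mitotic chromosomes, was at 11.1, 7.67 and 3.52 FPKM and 22.4, 21.8 and 12.7 FPKM. It was apart and did not pass (-1.31, SE 0.38, adjusted p = 0.0716). Smc4 and Mki67 were named after their values were seen.

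Both transcription factors of the set fell. Foxm1, the forkhead factor of late cell cycle genes, was at 1.60, 1.82 and 0.55 FPKM in BBR mice and 5.78, 4.87 and 3.08 FPKM in SASP mice (-1.28, SE 0.29, limma adjusted p = 0.0426). Mybl2, which encodes B-Myb, was at 1.35, 1.74 and 1.54 FPKM and 3.47, 4.29 and 4.29 FPKM (-0.98, SE 0.14, adjusted p = 0.0153). Mybl2 differed from the other genes in its order of mice, since neither BBR mouse 3 nor SASP mouse 3 was low, and its SD was 0.195 FPKM under BBR and 0.473 FPKM under SASP. Of 5 tested genes of MuvB and its other partners, Lin9 fell (-0.69, adjusted p = 0.0435), and the median was -0.13.

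To set the genes against each other within a mouse, each level was taken relative to the median mitotic gene of the same mouse, which was at 2.53, 2.29 and 1.58 in BBR mice and at 3.39, 3.28 and 2.73 in SASP mice as log2(FPKM + 1). This is a description, with no test, and the added 1 shrinks differences of genes with low FPKM and so raises their relative level under BBR. Taking away the median of the set itself puts genes on both sides by construction. The order of the genes is that of their log2 fold changes, and no such count was made over all genes. In 32 of the 55 genes the relative levels overlapped between the groups. They were lower in all BBR mice in 14 genes, led by Top2a, Birc5 and Ccna2, whose group means differed by -0.83, -0.64 and -0.63. They were higher in all BBR mice in 9 genes, led by Pttg1 (1.26), Plk1 (0.86) and Cdc25b (0.85). On log2 FPKM with nothing added, a scale chosen after the values were seen, 15 genes were lower in all BBR mice and 5 were higher. The 5, Pttg1, Plk1, Cdc25b, Smc4 and Incenp, were higher on both scales, and Kif18b, Cdc25c, Cenpf and Espl1 overlapped without the added 1. Lower on both scales were 12 genes, among them Top2a, Birc5, Ccna2 and Aurkb. Cenph was lower only with nothing added (-0.94), and Ube2c and Cdca8 only on log2(FPKM + 1).

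**Figure D5:**
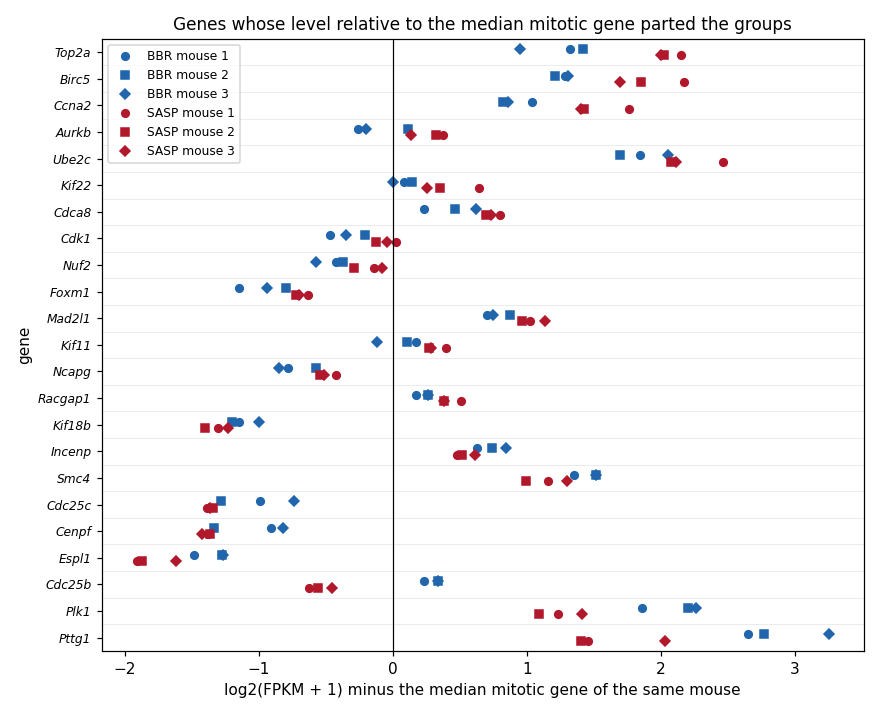
Level of 23 mitotic genes relative to the median mitotic gene of the same mouse (horizontal axis, log2 scale), for the genes in which the BBR (blue) and SASP (red) mice did not overlap. The upper 14 genes are lower in BBR mice and the lower 9 are higher, with the largest difference of group means in Top2a among the first and Pttg1 among the second. Of these, 12 and 5 did so also with nothing added to FPKM.

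Further genes of mitosis are given beside these, with no test between the lists. Of 105 others in the table, 103 were tested, 85 had a lower mean under BBR and 14 fell (13.6%), with a median log2 fold change of -0.57. Trip13, the ATPase that takes the checkpoint complex apart, fell from 3.96 ± 0.810 under SASP to 1.26 ± 0.190 FPKM under BBR (SD, n = 3 each, -1.13, limma adjusted p = 0.0164). Ube2s, the second ubiquitin-conjugating enzyme of the anaphase-promoting complex, and Spdl1, which brings dynein to kinetochores, changed by -0.82 and -1.12 (adjusted p = 0.0185 and 0.0187). Split by complex after the values were seen, the 24 other centromere and outer kinetochore genes had a median of -0.67 and 4 fell. The 12 core subunits of the anaphase-promoting complex had a median of 0.09 and the 8 cohesin genes, which hold sister chromatids together, -0.09. In limma 0 of these 20 fell or rose, with 1 core subunit higher at an unadjusted p under 0.05 and 0 cohesin genes.

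Genes of the preceding cell cycle stages are given for comparison. All 42 DNA replication genes were lower in mean under BBR, with a median log2 fold change of -1.05, and 21 fell, among them Fen1 (-1.62, limma adjusted p = 0.0019), Gins1 (-1.36, adjusted p = 0.00529) and Rrm2 (-2.12, adjusted p = 0.00964). Their sums were 253, 321 and 168 FPKM in BBR mice and 544, 551 and 535 FPKM in SASP mice. The coefficient of variation over the SASP mice was 1.40% for this sum and 27.8% for the mitotic sum, so that SASP mouse 3 was low for mitotic genes but not for replication genes. Of 26 tested G1/S cyclins, E2F factors and CDK inhibitors, 18 were lower in mean and 5 fell, with a median of -0.28. Ccnd1, cyclin D1, changed most clearly (-1.80, adjusted p = 0.00245), followed by Tfdp1 (-0.94, adjusted p = 0.00546) and Ccne1 (-1.42, adjusted p = 0.00644).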

How the data were processed

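Total RNA of 6 colorectal samples was sequenced. Per the submitters' processing notes the build was mm9 and the tools were Bowtie2 2.2.5 and RSEM 1.2.12, and the methods describe rRNA depletion and single-end reads of 50 bases from DNA nanoballs, while the labels name an Illumina kit. The annotation is not given in the sources used here. The deposited values are FPKM per gene and sample, which the authors calculated with RSEM. No count model was run, since FPKM are no counts. Depth was estimated from the lowest values of short genes (31 to 56 genes per sample) and is approximate.

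FPKM were transformed as log2(FPKM + 1), which understates changes of low genes. Genes with at least 1 FPKM in at least 3 of 6 mice were tested with limma 3.58.1 (R 4.3.3), with a mean-variance trend, two-sided, adjusted by Benjamini-Hochberg over all 12072 tested genes, at a threshold of 0.05. The fit was tested on simulated data. An adjusted p printed without a tool is from this fit. At most 0.389% of tested genes had identical values in any 2 mice, so no sample was a copy of another. Each sample was counted as 1 replicate, which this check cannot show to be right. Replicate numbers follow the order of the records and pair no mice. Alternatives were a pseudocount of 0.1, no filter, a mean of at least 5 FPKM, median-ratio scaling, quantile normalization, array quality weights, no variance trend, the mean log2 level of the smooth muscle markers as a covariate and leaving out each mouse. Values per mouse are given for each mitotic gene past the threshold and, in a role with fewer than 2, for the 2 with the smallest p. Other lists are named by up to 3 genes past the threshold, and 1 marker gene is not reported here. The genes and lists were chosen with earlier results of these data known. Promoters are from RefSeq.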

Additional observations from a re-analysis of the deposited data

How the results depend on the processing

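The count of 17 mitotic genes that fell became 11 with a pseudocount of 0.1, 2 with no filter, 10 of 30 tested with a mean of at least 5 FPKM, 35 with median-ratio scaling, 33 with quantile normalization, 26 with array quality weights, 0 with the smooth muscle covariate and 0 to 30 without 1 mouse. The median of -0.98 became -0.45 with array quality weights and -0.40 with the covariate. For the other mitotic genes the count of 14 became 5 with no filter, 4 with a mean of at least 5 FPKM, 38 with median-ratio scaling, 37 with quantile normalization, 41 with array quality weights, 0 with the covariate and 0 to 32 without 1 mouse. Their median of -0.57 became -0.17 with a mean of at least 5 FPKM, -0.22 with weights and -0.21 with the covariate. Signs turned for Plk1 (0.16 with weights, 0.31 with the covariate, -0.27 to 0.057 without 1 mouse), Cdc25b (0.34, 0.32 and -0.32 to 0.10), Cenpa (0.13 with weights, 0.055 with the covariate), Ccnb2 (0.076) and Hmmr (0.14, both with weights), and for Cenpf with weights. The causes were not tested, beyond fewer genes or mice entering a fit. Calls over all tested genes moved as well. The share that fell, 5.04% with all mice, was 4.62% with a pseudocount of 0.1, 2.1% with no filter, 5.64% with a mean of at least 5 FPKM, 9.83% with median-ratio scaling, 8.23% with quantile normalization, 20.6% with weights (where 38.4% rose) and 0.116% with the covariate.

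Median-ratio scaling moved the median of all tested genes from 0.10 to -0.021, and 1186 genes fell and 498 rose in place of 608 and 461, while 54 of the 55 mitotic genes were lower in mean there, 48 with array quality weights and 51 with the covariate. All 17 calls were kept with both scalings and without BBR mouse 3. No paired analysis was possible because the replicate numbers only name mice. With 3 mice a group the spread between mice sets which differences pass, and a difference that missed the threshold is not shown to be absent.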
